A study of Callithrix jacchus with 20 samples.

Results

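The expression of imprinted genes was followed in marmoset cells on the way from induced pluripotent stem cells (cjiPSCs) to primordial germ cell-like cells (cjPGCLCs). The genes were taken from a list of 39 symbols known as imprinted in human or mouse, and the rows with these symbols were read from the count tables. Of the 39 genes, 32 had a row among the 25102 genes of the tables, and 29 of them passed the filter on low counts and were among the 15797 genes tested. H19, MEG3, KCNQ1, HYMAI, GNAS, MIMT1 and ASCL2 had no row under these symbols and were not analysed here. RTL1, NLRP2 and TP73 had a row but too few counts for a test.

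In total, 20 poly(A) RNA-seq libraries were analysed, 2 biological replicates from each of 10 conditions. All cells came from 1 line, DPZ_cjiPSC2, which had been reprogrammed with episomal plasmids from foetal fibroblasts of the common marmoset. The p-values therefore measure the spread between cultures of this line, estimated for each gene over all 10 conditions together. The cjiPSCs were kept either in TESR, a commercial medium for primed human iPSCs, or in cjPSCM, a medium with LIF, TGFβ, FGF2, vitamin C and inhibitors of GSK3, SRC family kinases and WNT signalling. From each medium, precursors of mesendoderm (pre-ME) were made within 24 h with the GSK3 inhibitor CHIR at 3 µM, with or without 100 ng/ml Activin A (ActA). The embryoid bodies analysed here were grown from pre-ME of cjPSCM origin, with BMP4, LIF, SCF and EGF. At day 4, cjPGCLCs and somatic cells (soma) were sorted from them as double-positive and double-negative cells, and these 4 conditions are named by the presence of ActA in the pre-ME step. As sort markers the sample titles name INTα6 and EpCAM, the other labels CXCR4 and EpCAM, and the methods INTα6 and CXCR4.

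Imprinted genes are transcribed mainly from 1 parental allele. The choice is set by DNA methylation that is laid down in the parental germ lines at imprinting control regions and kept through early development in somatic cells. In migrating and gonadal germ cells this methylation is erased before new, sex-specific marks are made. Many genes expressed from the paternal allele promote foetal or placental growth, whereas several expressed from the maternal allele restrain it. In cultured pluripotent cells imprints can be lost, which changes the level of some of these genes. The tables hold the level of each gene summed over both alleles, and they hold no information on the allele or on methylation. The allele named below for a gene is the one known from human or mouse. Of the tested genes, 16 were classed as paternally expressed and 10 as maternally expressed. The class need not hold in every tissue or species: UBE3A is known as maternally expressed in neurons and IGF2R in mouse. This limit holds for the counts by class below. For 3 genes (COPG2, GRB10 and BLCAP) no class was given, since the allele depends on tissue or isoform or is unsettled.

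Between 4784964 and 22067099 reads were counted on genes per library. Levels are given as normalised counts, the count divided by the size factor of the library, for replicates 1 and 2 in this order, and 3 counts correspond to 1.40 to 6.92 normalised counts. Such counts do not correct for gene length, so levels are compared between conditions and not between genes. In bulk RNA, fewer cells that express a gene and less RNA per cell cannot be told apart. All 6 pluripotency markers (POU5F1, NANOG, SOX2, LIN28A, DPPA4 and SALL4) were detected in both cjiPSC conditions, with sums of 20626 to 26804 normalised counts in TESR and 15689 to 21959 in cjPSCM. The sum of 6 PGC markers (SOX17, TFAP2C, PRDM1, NANOS3, KIT and DPPA3) was 2157 to 3735 in cjPGCLCs and 918 to 1649 in soma, and 5 of the 6 were higher in cjPGCLCs in both ActA conditions. The same sum was 1814 to 2123 in TESR cjiPSCs and 1860 to 3026 in cjPSCM cjiPSCs, which overlapped with the cjPGCLCs with ActA (2157 to 2305).

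The 2 libraries of cjiPSCs in cjPSCM stood apart from each other. Of 14313 genes whose mean over all libraries reached 10 normalised counts, 15.7% differed more than 2-fold between these libraries, on the scale of log2(normalised count + 1). The value was 7.20% between the TESR cjiPSC libraries and between 1.03% and 4.46% in the other conditions. Of the 28 imprinted genes at this level, 8 (28.6%) differed more than 2-fold between the cjPSCM libraries: L3MBTL1, DLK1, DIRAS3, PPP1R9A and PEG3 were lower in replicate 1, and ATP10A, PHLDA2 and SNRPN were higher in it. The share of reads that fell on no annotated gene was 12.2% in replicate 1 and 19.3% in replicate 2 of these cjiPSCs. It was 10.6% and 13.3% in the TESR cjiPSCs and 17.2% to 23.2% in all libraries of the later stages, so replicate 1 was near the TESR cjiPSCs and replicate 2 near the other libraries. The part of this share in the results was not tested. Each test took the spread of a gene from all conditions together. Over the 14313 genes, the SD of the replicate difference was 0.914 in cjPSCM cjiPSCs and 0.264 to 0.570 in the other conditions. In comparisons with these cjiPSCs, SE and p-values can therefore understate the spread of the cultures. For most counts of calls with them, the value without each of these libraries is also given. With 1 library left out, its condition holds 1 library, and the spread comes from the other conditions.

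**Figure D1:**
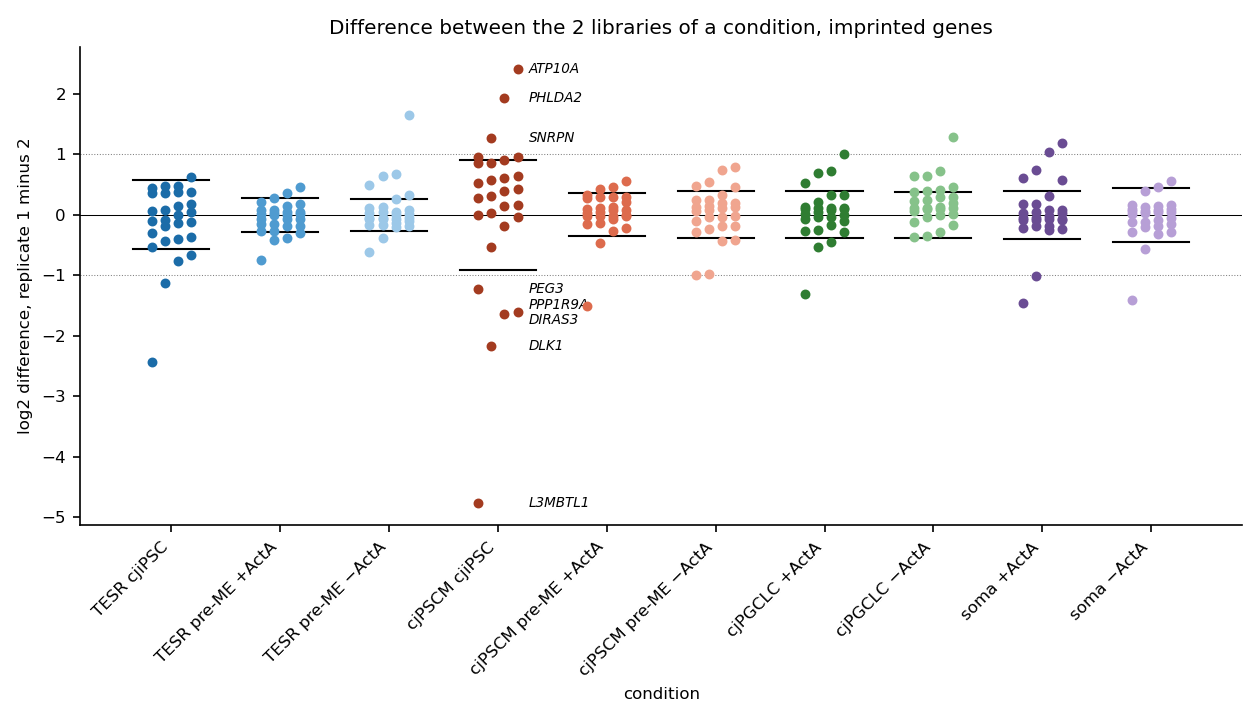
Difference between the 2 libraries of each condition, on the scale of log2(normalised count + 1), replicate 1 minus replicate 2 (vertical axis); each point is 1 of 28 imprinted genes, black bars mark plus and minus 1 SD over 14313 genes, and dotted lines mark a 2-fold difference. The 8 genes with more than a 2-fold difference in the cjiPSCs of cjPSCM are named, and L3MBTL1 lies farthest from 0.

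The range over the 20 libraries differed between genes. IGF2 went from 9.91 to 2273 normalised counts, a ratio of 229, whereas CDKN1C, a cell cycle inhibitor, varied by a factor of 2.92 and GRB10, an adaptor of the insulin receptor, by a factor of 1.83. The map of all tested genes shows IGF2, DLK1, PEG3 and ZIM2 with low values in cells of cjPSCM origin before day 4 and higher values in all day 4 cells. ZIM2 was low in the TESR libraries too, and before day 4 the ranges of DLK1 and PEG3 overlapped between the media. ATP10A had its highest values in the TESR cjiPSCs.

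**Figure D2:**
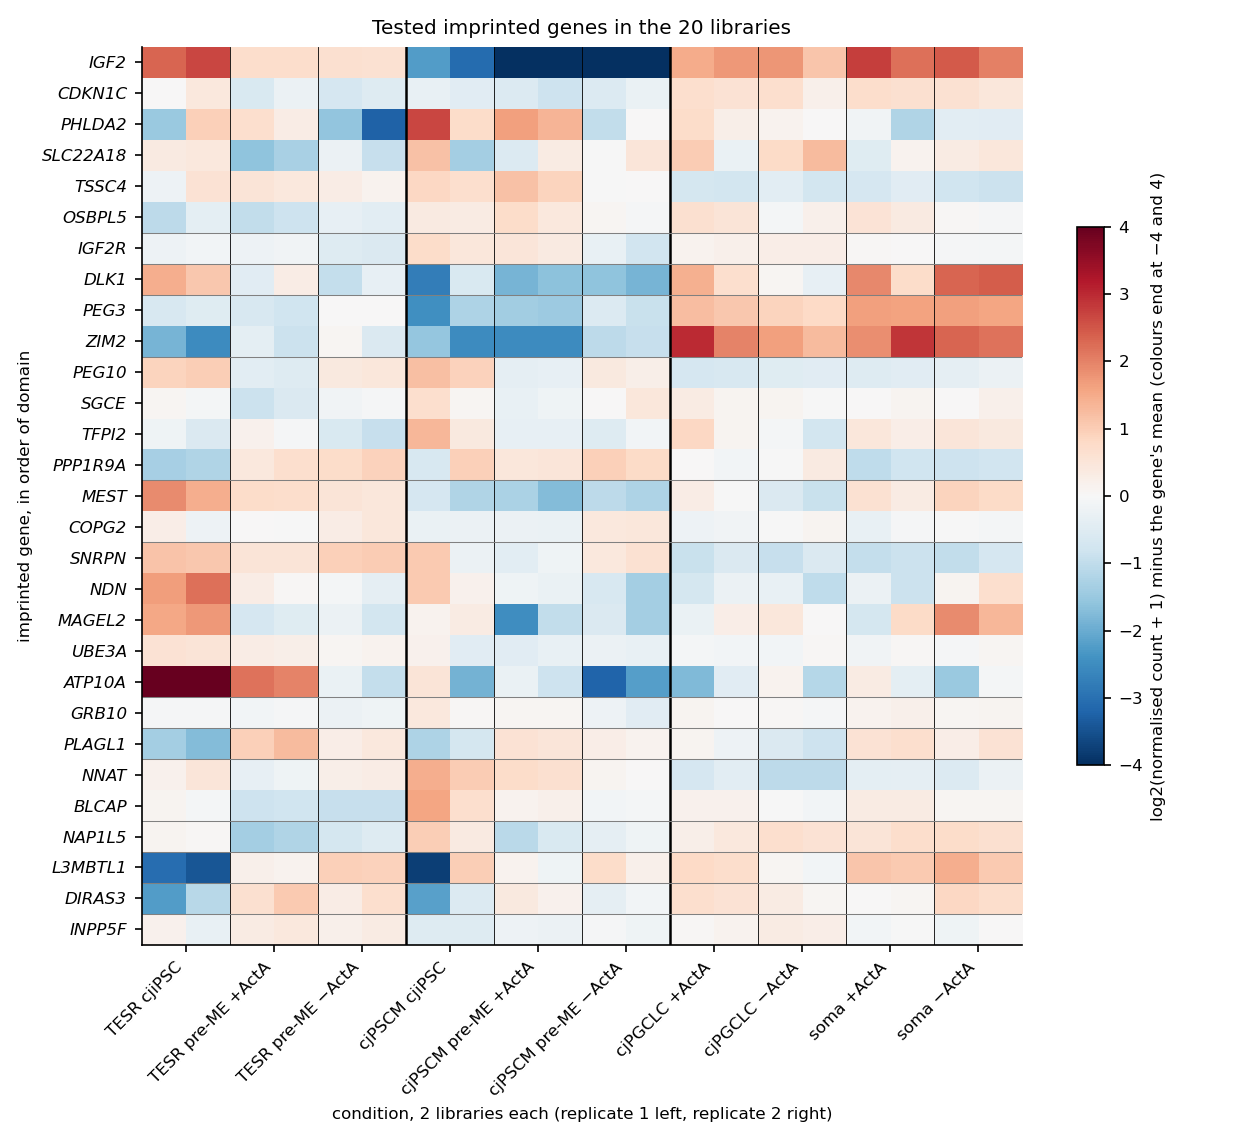
Log2(normalised count + 1) of each of the 29 tested imprinted genes (rows, in order of domain) minus the mean of the gene over all libraries, in the 20 libraries (columns, 2 for each condition); colours end at -4 and 4. IGF2, from 9.91 to 2273 normalised counts, has its lowest values in the pre-ME of cjPSCM origin.

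IGF2, the insulin-like growth factor of foetal growth, is expressed from the paternal allele. Its level was 1666 and 2140 normalised counts in TESR cjiPSCs and 70.6 and 38.5 in cjPSCM cjiPSCs. In pre-ME of TESR origin it was 547 and 545 with ActA and 524 and 508 without ActA, and in pre-ME of cjPSCM origin 19.2 and 14.04 and 14.1 and 9.91. At day 4 the levels were 927 and 1115 in cjPGCLCs with ActA, 1125 and 720.2 in cjPGCLCs without ActA, 2273 and 1528 in soma with ActA and 1836 and 1338 in soma without ActA. The libraries thus formed separate ranges: every library of cjPSCM origin before day 4 was below every other library, and the day 4 libraries overlapped with the TESR cjiPSCs. IGF2 was 33.8-fold lower in cjPSCM than in TESR in cjiPSCs, 31.97-fold lower in pre-ME with ActA and 40.99-fold lower in pre-ME without ActA. The log2 fold changes were -5.08 ± 0.30 (SE; adjusted p = 4.54e-09), -5.00 ± 0.34 (SE; adjusted p = 6.28e-08) and -5.36 ± 0.34 (SE; adjusted p = 6.22e-08). From pre-ME to day 4, IGF2 rose by log2 fold changes of 5.89 ± 0.35 in cjPGCLCs and 6.77 ± 0.35 in soma with ActA, and of 6.20 ± 0.35 and 6.95 ± 0.35 without ActA, with adjusted p of 3.36e-09, 7.23e-10, 1.47e-09 and 3.78e-10. These 7 calls were kept when any 1 library was left out.

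Beside IGF2, its clearance receptor IGF2R takes the ligand up for degradation and is maternally expressed in mouse. The level of IGF2R was 2815 and 2991 in TESR cjiPSCs and 5445 and 4398 in cjPSCM cjiPSCs. Pre-ME of TESR origin had 2838 and 2966 with ActA and 2249 and 2167 without it, and pre-ME of cjPSCM origin had 4561 and 4181 and 2617 and 1891. In day 4 cells all values lay between 3056 and 3937. IGF2R was thus higher in cjPSCM in cjiPSCs, with a log2 fold change of 0.74 ± 0.14 (SE; adjusted p = 0.000581), the direction opposite to that of IGF2. With ActA it was higher than without ActA in pre-ME of cjPSCM origin, by 0.94 ± 0.14 (SE; adjusted p = 0.000319), and no library of these conditions overlapped.

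MEST, which codes for a protein of the hydrolase fold family and is paternally expressed, followed the medium in the same direction as IGF2. It had 10505 and 7750 normalised counts in TESR cjiPSCs and 1775 and 1233 in cjPSCM cjiPSCs. The pre-ME had 4668 and 4630 with ActA and 4025 and 3822 without ActA in TESR origin, and 1164 and 843 and 1364 and 1197 in cjPSCM origin. All 6 TESR libraries were above all 6 of these cjPSCM libraries. The log2 fold changes of cjPSCM over TESR were -2.62 ± 0.22 (SE; adjusted p = 1.30e-07) in cjiPSCs, -2.22 ± 0.21 (SE; adjusted p = 2.01e-06) in pre-ME with ActA and -1.61 ± 0.21 (SE; adjusted p = 4.41e-05) in pre-ME without ActA. Day 4 cjPGCLCs had 3480 and 2760 with ActA and 1889 and 1532 without ActA, and soma had 4349 and 3503 and 5258 and 4771. Against its pre-ME, MEST rose in cjPGCLCs with ActA by 1.64 ± 0.21 (SE; adjusted p = 1.25e-05) and in soma by 1.96 ± 0.21 and 1.94 ± 0.21, whereas cjPGCLCs without ActA had 0.41 ± 0.21 (SE; adjusted p = 0.128). MEST overlaps COPG2, a coat protein gene, in the RefSeq annotation, so their reads cannot be fully told apart where the counting did not use strand. COPG2 stayed between 496 and 830.2 normalised counts in all libraries.

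DLK1, a membrane protein related to NOTCH ligands that restrains differentiation, is a paternally expressed gene of the DLK1/MEG3 domain. Its level was 175 and 136 in TESR cjiPSCs, and the cjPSCM cjiPSCs had 8.48 and 41.5. Pre-ME of TESR origin had 45.97 and 77.5 with ActA and 32.4 and 50.1 without ActA, against 16.7 and 19.7 and 20.04 and 16.8 in cjPSCM origin. DLK1 was lower in cjPSCM cjiPSCs, with a log2 fold change of -2.80 ± 0.52 (SE; adjusted p = 0.000461), and this call was kept without each library. The value was -4.20 without cjPSCM replicate 2 and -1.96 without cjPSCM replicate 1. In pre-ME with ActA the value was -1.79 ± 0.53 (SE; adjusted p = 0.0205), and the call was lost without replicate 2 of TESR (-1.37, adjusted p = 0.148), replicate 1 of cjPSCM (-1.66, adjusted p = 0.154) or replicate 2 of cjPSCM (-1.89, adjusted p = 0.0769). At day 4, DLK1 had 171 and 102 in cjPGCLCs with ActA, 66.8 and 50.4 in cjPGCLCs without ActA, 244 and 107 in soma with ActA and 321 and 347 in soma without ActA. The soma libraries without ActA were the highest of all, and the cjPGCLC libraries without ActA lay below all other day 4 libraries. RTL1, a retrotransposon-derived gene of the same domain, had 9.22 and 6.19 normalised counts in soma without ActA, from 4 and 4 counts, and 5.96 or fewer in every other library.

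PEG3, a zinc finger gene expressed from the paternal allele, reached its highest levels in the sorted cells. In cjiPSCs it had 8186 and 9025 normalised counts in TESR and 2312 and 5382 in cjPSCM. Pre-ME of TESR origin had 8103 and 7317 with ActA and 12906 and 12751 without ActA, and pre-ME of cjPSCM origin had 4867 and 4605 and 8667 and 6881. In day 4 cells it was 29508 and 26927 in cjPGCLCs with ActA, 23651 and 21801 in cjPGCLCs without ActA, 39938 and 38454 in soma with ActA and 39516 and 38246 in soma without ActA. All 8 day 4 libraries were above all 12 earlier ones, and the 4 soma libraries were above the 4 cjPGCLC libraries. The difference between cjPGCLCs and soma was not called in either ActA condition. PEG3 rose from pre-ME by log2 fold changes of 2.58 ± 0.26 in cjPGCLCs and 3.04 ± 0.26 in soma with ActA, and of 1.54 ± 0.25 and 2.29 ± 0.25 without ActA, with adjusted p of 8.36e-07, 1.83e-07, 0.000124 and 2.59e-06. ZIM2, a zinc finger gene that in human shares its first exons with PEG3, had 0 to 9 counts per library before day 4 and 8 to 52 counts at day 4. In pre-ME of cjPSCM origin with ActA both libraries were at 0 counts, and against 3 counts over the group ZIM2 was at least 22.6-fold higher in cjPGCLCs and at least 19.6-fold higher in soma. Without ActA the ratio to pre-ME was 8.32 (95% counting interval 3.2 to 27.5) in cjPGCLCs and 14.03 (95% counting interval 5.35 to 46.5) in soma.

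**Figure D3:**
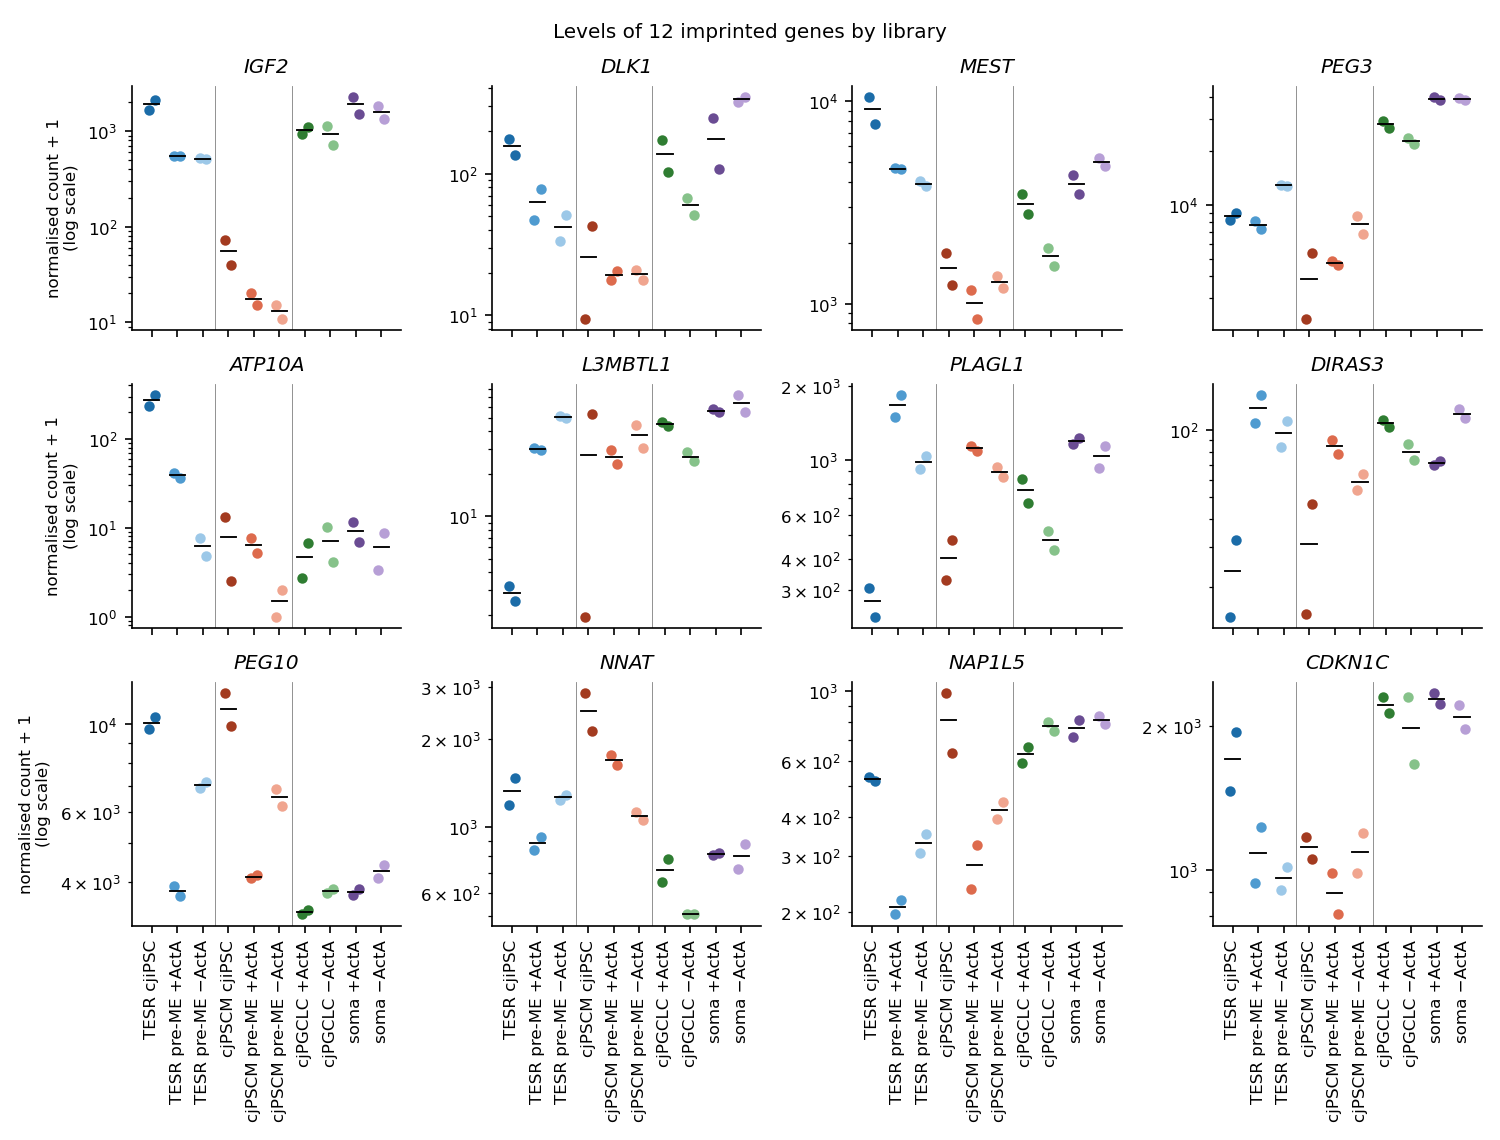
Normalised count + 1 (log axis) of 12 imprinted genes in each condition; points are the 2 libraries, black bars their mean, and grey lines separate TESR, cjPSCM before day 4 and day 4. IGF2 is at 70.6 or lower in all cjPSCM libraries before day 4 and at 720.2 to 2273 in the day 4 libraries.

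PLAGL1 and DIRAS3 were lower in cjiPSCs than in pre-ME in both media, and L3MBTL1 in TESR. PLAGL1 is a zinc finger transcription factor that acts on other imprinted genes in mouse. It had 302 and 232 normalised counts in TESR cjiPSCs, 1492 and 1833 in their pre-ME with ActA and 920.0 and 1039 in those without ActA. In cjPSCM it had 327 and 473 in cjiPSCs, 1142 and 1086 in pre-ME with ActA and 935 and 856 in pre-ME without ActA. None of the pre-ME libraries overlapped with the cjiPSCs of their medium. The log2 fold changes of pre-ME over cjiPSCs were 2.63 ± 0.19 and 1.86 ± 0.19 in TESR and 1.51 ± 0.19 and 1.21 ± 0.19 in cjPSCM, with and without ActA, and each was called without any 1 library. In a fit of the 4 libraries of the comparison alone, the value in cjPSCM with ActA was 1.51, adjusted p = 0.0575. At day 4 PLAGL1 had 839 and 669.7 and 515 and 432 in cjPGCLCs with and without ActA, and 1160 and 1230 and 932 and 1140 in soma.

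DIRAS3, a small GTPase that restrains growth, had 13.8 and 31.3 in TESR cjiPSCs and 14.1 and 45.95 in cjPSCM cjiPSCs. In pre-ME of TESR origin it had 106 and 142 with ActA and 82.8 and 109 without ActA, and in those of cjPSCM origin 89.3 and 77.2 and 53.1 and 62.4. All pre-ME libraries were above the cjiPSCs. The log2 fold changes were 2.62 ± 0.39 (SE; adjusted p = 0.0001) and 2.25 ± 0.39 (SE; adjusted p = 0.000345) in TESR and 1.59 ± 0.40 (SE; adjusted p = 0.0111) and 1.06 ± 0.40 (SE; adjusted p = 0.0456) in cjPSCM. Without cjPSCM cjiPSC replicate 1 the cjPSCM calls were lost (0.90, adjusted p = 0.155 with ActA and 0.37, adjusted p = 0.495 without ActA). Leaving out replicate 1 of the pre-ME with ActA (1.46, adjusted p = 0.094), or either replicate of those without ActA (1.19, adjusted p = 0.0818 and 0.94, adjusted p = 0.149), ended them too. Day 4 values lay between 69.1 and 122.

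L3MBTL1, a chromatin-compacting protein, was nearly silent in 3 of the 4 cjiPSC libraries. It had 2.2 and 1.49 normalised counts in TESR cjiPSCs and 0.942 and 51.9 in cjPSCM cjiPSCs, from 4 and 1 and 1 and 35 counts. Pre-ME had 29.6 and 28.7 and 50.5 and 49.1 in TESR origin with and without ActA, and 28.4 and 22.5 and 43.6 and 29.7 in cjPSCM origin. The second cjPSCM cjiPSC library was thus at the level of pre-ME, and the first was at that of the TESR cjiPSCs. The 3 low libraries were the 3 with 10.6% to 13.3% of reads on no annotated gene, against 17.2% to 23.2% in all others, and DIRAS3 and PPP1R9A were also lower in these 3 than in any other cjiPSC or pre-ME library. From TESR cjiPSCs to pre-ME the log2 fold change was 3.80 ± 0.94 (SE; adjusted p = 0.00522) with ActA and 4.57 ± 0.90 (SE; adjusted p = 0.000955) without ActA. The former was lost without TESR cjiPSC replicate 1 (4.21, adjusted p = 0.0581). The medium comparison of cjiPSCs gave 3.46 ± 1.02 (SE; adjusted p = 0.0142) with overlapping libraries, and without cjPSCM replicate 2 it turned to -1.02, adjusted p = 0.574. Without TESR replicate 1 it was 3.86, adjusted p = 0.119. At day 4 all libraries lay between 23.6 and 71.5.

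CDKN1C and PHLDA2 belong to the maternally expressed, growth-restraining genes of the KCNQ1 domain beside IGF2. CDKN1C had 1466 and 1945 in TESR cjiPSCs and 1172 and 1054 in cjPSCM cjiPSCs. Pre-ME had 939 and 1228 with ActA and 905 and 1012 without ActA in TESR origin, and 982 and 805 and 985 and 1193 in cjPSCM origin. Day 4 libraries lay between 1667 and 2350, above all pre-ME libraries. The rise from pre-ME was 1.31 ± 0.18 in cjPGCLCs and 1.35 ± 0.18 in soma with ActA, and 0.86 ± 0.18 and 0.91 ± 0.18 without ActA, and it was called without any 1 library.

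PHLDA2, a gene that restrains placental growth, had 7.16 and 43.2 in TESR cjiPSCs and 144 and 37.1 in cjPSCM cjiPSCs with overlapping media, and the call of the medium (2.12 ± 0.68 (SE; adjusted p = 0.0228)) was lost without TESR replicate 1 (1.11, adjusted p = 0.27) or cjPSCM replicate 1 (0.83, adjusted p = 0.424). In pre-ME it was higher with ActA, with 35.02 and 27.1 against 6.58 and 1.4 in TESR origin and 70.1 and 57.6 against 10.6 and 21.8 in cjPSCM origin. The log2 fold changes of ActA were 2.98 ± 0.78 (SE; adjusted p = 0.023) and 2.02 ± 0.69 (SE; adjusted p = 0.0467). Each was lost with single libraries left out, at the least to 2.22, adjusted p = 0.288 without TESR replicate 2 of pre-ME without ActA, and to 1.53, adjusted p = 0.254 without cjPSCM replicate 1 of the same condition. Leaving out either TESR library with ActA gave 2.78, adjusted p = 0.125 and 3.15, adjusted p = 0.0609, and the other cjPSCM libraries gave 1.86, adjusted p = 0.224, 2.15, adjusted p = 0.0899 and 2.57, adjusted p = 0.102. At day 4 PHLDA2 lay between 8.94 and 37.2.

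TSSC4, a factor of spliceosome assembly in the KCNQ1 domain, fell from pre-ME in all 4 day 4 conditions. It had 960.4 and 782 in pre-ME of cjPSCM origin with ActA and 424 and 429.9 in those without ActA, and its day 4 values lay between 235 and 317. With ActA the log2 fold change was -1.75 ± 0.20 (SE; adjusted p = 2.86e-06) in cjPGCLCs and -1.61 ± 0.20 (SE; adjusted p = 7.19e-06) in soma. Without ActA it was -0.58 ± 0.19 (SE; adjusted p = 0.0257) in cjPGCLCs and -0.86 ± 0.20 (SE; adjusted p = 0.00267) in soma, and the call in cjPGCLCs was lost without pre-ME replicate 1 (-0.59, adjusted p = 0.0706), pre-ME replicate 2 (-0.56, adjusted p = 0.094) or cjPGCLC replicate 2 (-0.44, adjusted p = 0.177). OSBPL5, a lipid transfer protein, was higher in cjPSCM, with 140.3 and 138 against 52.3 and 83.4 in cjiPSCs (1.07 ± 0.22 (SE; adjusted p = 0.00108)) and 184 and 149 against 54.7 and 62.1 in pre-ME with ActA (1.50 ± 0.21 (SE; adjusted p = 7.89e-05)). SLC22A18, a transporter, was at 14.2 normalised counts or fewer in every library. In TESR it fell from 13 and 5 counts in cjiPSCs to 2 and 3 in pre-ME with ActA, a ratio of 5.37 (95% counting interval 1.92 to 18.5), and the call (adjusted p = 0.0276) was lost without any of the 4 libraries, with adjusted p between 0.0581 and 0.136. GRB10 had 2444 and 2458 in TESR cjiPSCs, 3396 and 2599 in cjPSCM cjiPSCs and 1858 to 2894 in all other libraries.

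ATP10A, a phospholipid flippase of the SNRPN/UBE3A domain known as maternally expressed, had, together with IGF2, the largest fitted changes between media in cjiPSCs. It had 231 and 311 normalised counts in TESR cjiPSCs and 12.2 and 1.48 in cjPSCM cjiPSCs. In pre-ME of TESR origin it had 40.5 and 35.6 with ActA and 6.58 and 3.74 without ActA, and all libraries of later stages or of cjPSCM pre-ME were at 10.6 or fewer. The TESR cjiPSCs therefore stood above all other libraries, followed by their pre-ME with ActA. The log2 fold change between media was -5.11 ± 0.54 (SE; adjusted p = 1.61e-06) in cjiPSCs. Without cjPSCM replicate 1 it was -7.43, and without cjPSCM replicate 2 it was -4.45, where IGF2 had -4.75. From TESR cjiPSCs to pre-ME the log2 fold change was -2.81 ± 0.42 (SE; adjusted p = 0.000102) with ActA and -5.69 ± 0.52 (SE; adjusted p = 7.80e-07) without ActA. In TESR pre-ME, ATP10A was higher with ActA by 2.87 ± 0.52 (SE; adjusted p = 0.00153), which was lost without replicate 2 of pre-ME without ActA (2.51, adjusted p = 0.0514).

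SNRPN, NDN and MAGEL2 are the paternally expressed genes of this domain among the tested ones. SNRPN, a splicing protein of brain and pluripotent cells, had 5983 and 5636 in TESR cjiPSCs and 5494 and 2265 in cjPSCM cjiPSCs. Pre-ME had 3835 and 3854 and 5223 and 5462 in TESR origin with and without ActA, and 2000 and 2407 and 3597 and 4068 in cjPSCM origin. The 8 day 4 libraries lay between 1361 and 1784, below all earlier ones. From pre-ME without ActA the log2 fold change was -1.28 ± 0.27 (SE; adjusted p = 0.00141) in cjPGCLCs and -1.36 ± 0.28 (SE; adjusted p = 0.000887) in soma, whereas from pre-ME with ActA it was -0.44 ± 0.27 (SE; adjusted p = 0.189) and -0.62 ± 0.27 (SE; adjusted p = 0.0691).

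NDN and MAGEL2, which code for MAGE family proteins, had low counts. NDN had 56.2 and 81.9 in TESR cjiPSCs, 35.8 and 19.3 in cjPSCM cjiPSCs and 5.94 to 27.8 in all other libraries. In TESR it fell, with log2 fold changes of -1.79 ± 0.35 (SE; adjusted p = 0.00103) into pre-ME with ActA and -2.21 ± 0.36 (SE; adjusted p = 0.000204) into pre-ME without ActA. MAGEL2 had 28.6 and 32.8 in TESR cjiPSCs and 10.4 and 11.9 in cjPSCM cjiPSCs, 7.68 or fewer in pre-ME and 36.9 and 24.8 in soma without ActA. The TESR falls into pre-ME, -2.33 ± 0.45 and -2.23 ± 0.44, and the rise into soma without ActA, 2.63 ± 0.53 (SE; adjusted p = 0.000791), were called without any 1 library. UBE3A, a ubiquitin ligase that is maternally expressed in neurons, lay between 907 and 1848 in all libraries and was lower in cjPSCM than in TESR cjiPSCs, with a log2 fold change of -0.67 ± 0.16 (SE; adjusted p = 0.00308).

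PEG10, a retrotransposon-derived gene needed for placenta formation, fell with differentiation in both media. It had 9740 and 10423 in TESR cjiPSCs, 3902 and 3680 in their pre-ME with ActA and 6908 and 7137 in those without ActA. In cjPSCM it had 12016 and 9918 in cjiPSCs, 4084 and 4150 in pre-ME with ActA and 6860 and 6209 in pre-ME without ActA. In each medium the order was cjiPSCs, pre-ME without ActA and pre-ME with ActA, with no overlap, and the fold changes between media did not pass the test at any of the 3 stages. The fall into pre-ME with ActA was -1.40 ± 0.12 in TESR and -1.40 ± 0.12 in cjPSCM, with adjusted p of 5.39e-07 and 1.34e-06, and that without ActA was -0.51 ± 0.12 and -0.71 ± 0.12. Day 4 libraries lay between 3300 and 4415. SGCE, a sarcoglycan gene that shares its promoter region with PEG10, stayed between 173 and 493 in all libraries.

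TFPI2 and PPP1R9A lie in the same domain. TFPI2, a protease inhibitor, was higher in cjPSCM cjiPSCs, with 1728 and 886 against 603 and 462 in TESR (1.27 ± 0.29 (SE; adjusted p = 0.00245)), and without cjPSCM replicate 1 the value was 0.68, adjusted p = 0.0605. PPP1R9A, an actin-binding subunit of a phosphatase, had 74.9 and 81.9 in TESR cjiPSCs and 122 and 374 in cjPSCM cjiPSCs. Its pre-ME libraries lay between 255 and 373 in both media, and the rise from TESR cjiPSCs was 1.86 ± 0.33 (SE; adjusted p = 0.000444) with ActA and 2.13 ± 0.33 (SE; adjusted p = 0.00013) without ActA. In soma it fell again, to 93.8 and 109 with ActA and 106 and 113 without ActA, with log2 fold changes of -1.38 ± 0.34 and -1.70 ± 0.34 from pre-ME.

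NNAT, a small membrane protein gene that lies within BLCAP in the RefSeq annotation, had 1189 and 1473 in TESR cjiPSCs and 2858 and 2124 in cjPSCM cjiPSCs. Pre-ME had 837 and 928 with ActA and 1243 and 1284 without ActA in TESR origin, and 1757 and 1628 and 1125 and 1061 in cjPSCM origin. With ActA it was thus lower in TESR pre-ME and higher in cjPSCM pre-ME. Day 4 libraries lay between 506 and 880.3, and all were below the pre-ME of cjPSCM origin. BLCAP was also higher in cjPSCM, by 1.17 ± 0.20 (SE; adjusted p = 0.000184) in cjiPSCs, 0.96 ± 0.20 (SE; adjusted p = 0.00207) in pre-ME with ActA and 0.83 ± 0.20 (SE; adjusted p = 0.0077) in pre-ME without ActA, and the last of these was lost without replicate 2 of cjPSCM (0.81, adjusted p = 0.0575), replicate 1 of TESR (0.83, adjusted p = 0.0574) or replicate 2 of TESR (0.83, adjusted p = 0.0675). Where the counting did not use strand, reads in the shared segment cannot be told apart.

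NAP1L5, a nucleosome assembly protein homologue that overlaps HERC3 in the RefSeq annotation, fell into pre-ME and rose at day 4. It had 986 and 634 in cjPSCM cjiPSCs, 235 and 324 in pre-ME with ActA, 391 and 445 in pre-ME without ActA and 592 to 835 in day 4 cells. The fall was -1.54 ± 0.19 with ActA and -0.93 ± 0.19 without ActA, and the rise from pre-ME with ActA was 1.18 ± 0.19 (SE; adjusted p = 0.000116) in cjPGCLCs and 1.45 ± 0.20 (SE; adjusted p = 1.78e-05) in soma. INPP5F, a phosphoinositide phosphatase, stayed between 1171 and 2227 in all libraries. TP73, a member of the p53 family, had 9.42 and 13.3 in cjPSCM cjiPSCs and 5.62 or fewer elsewhere, and NLRP2 had a total of 4 counts in all libraries.

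The comparison of media asks how the state of the cjiPSCs before differentiation bears on imprinted genes. In cjiPSCs, 11 of the 29 tested genes were higher in cjPSCM and 10 were lower at an adjusted p under 0.05 in edgeR, where 18.1% and 18.1% of all tested genes were higher and lower. The median log2 fold change was 0.27 over the imprinted genes and -0.000438 over all genes. Past the further threshold of a log2 fold change of 2, L3MBTL1 and PHLDA2 were higher, both with overlapping libraries, and ATP10A, IGF2, DLK1 and MEST were lower. Of the 21 calls, 11 were kept without each of the 4 libraries: ATP10A, IGF2, DLK1, MEST, PEG3 (-1.19 ± 0.25) and UBE3A were lower, and BLCAP, IGF2R, NNAT, OSBPL5 and PPP1R9A (1.61 ± 0.34) were higher. With 1 library left out, the spread comes from the other conditions, so a kept call does not test whether the replicates agree. PPP1R9A had a value of 0.64 without cjPSCM replicate 2 and 2.23 without replicate 1. For PEG3 these values were -1.90 and -0.71. The counts were 8 higher and 10 lower without cjPSCM replicate 1, 11 and 8 without cjPSCM replicate 2, and 7 and 8 without TESR replicate 1. In a fit of the 4 libraries of this comparison alone, 3 were higher and 4 lower. By the known allele and in the fit of all libraries, 4 paternally expressed genes of 16 were higher and 7 lower, and 6 maternally expressed genes of 10 were higher and 3 lower, and the difference between the classes was not tested.

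In pre-ME with ActA, 5 imprinted genes were higher in cells of cjPSCM origin and 10 were lower, beside 13.2% and 14.2% of all tested genes. The calls kept without each library were IGF2, MEST, ATP10A (-2.73 ± 0.58), INPP5F, BLCAP, NNAT and OSBPL5. Without replicate 1 of cjPSCM the counts were 3 higher and 4 lower, without replicate 1 of TESR 3 were higher, and without replicate 2 of either medium 5 were lower. The 4 libraries of this comparison alone gave 8 higher and 12 lower. In pre-ME without ActA, 1 gene (BLCAP) was higher and 2 (IGF2 and MEST) were lower, beside 8.08% and 5.96%. At an unadjusted p under 0.05, 2 were higher and 8 lower. The 4 libraries of the comparison alone gave 1 higher and 8 lower, and no filter on low counts gave 2 and 6. BLCAP was lost without replicate 2 of cjPSCM (adjusted p = 0.0575), replicate 1 of TESR (adjusted p = 0.0574) or replicate 2 of TESR (adjusted p = 0.0675). The TESR pre-ME libraries had 18858625 to 22067099 counts on genes and those of cjPSCM origin 8193936 to 17491325. Whether the libraries of the 2 media were prepared together is not given in the sources used here.

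**Figure D4:**
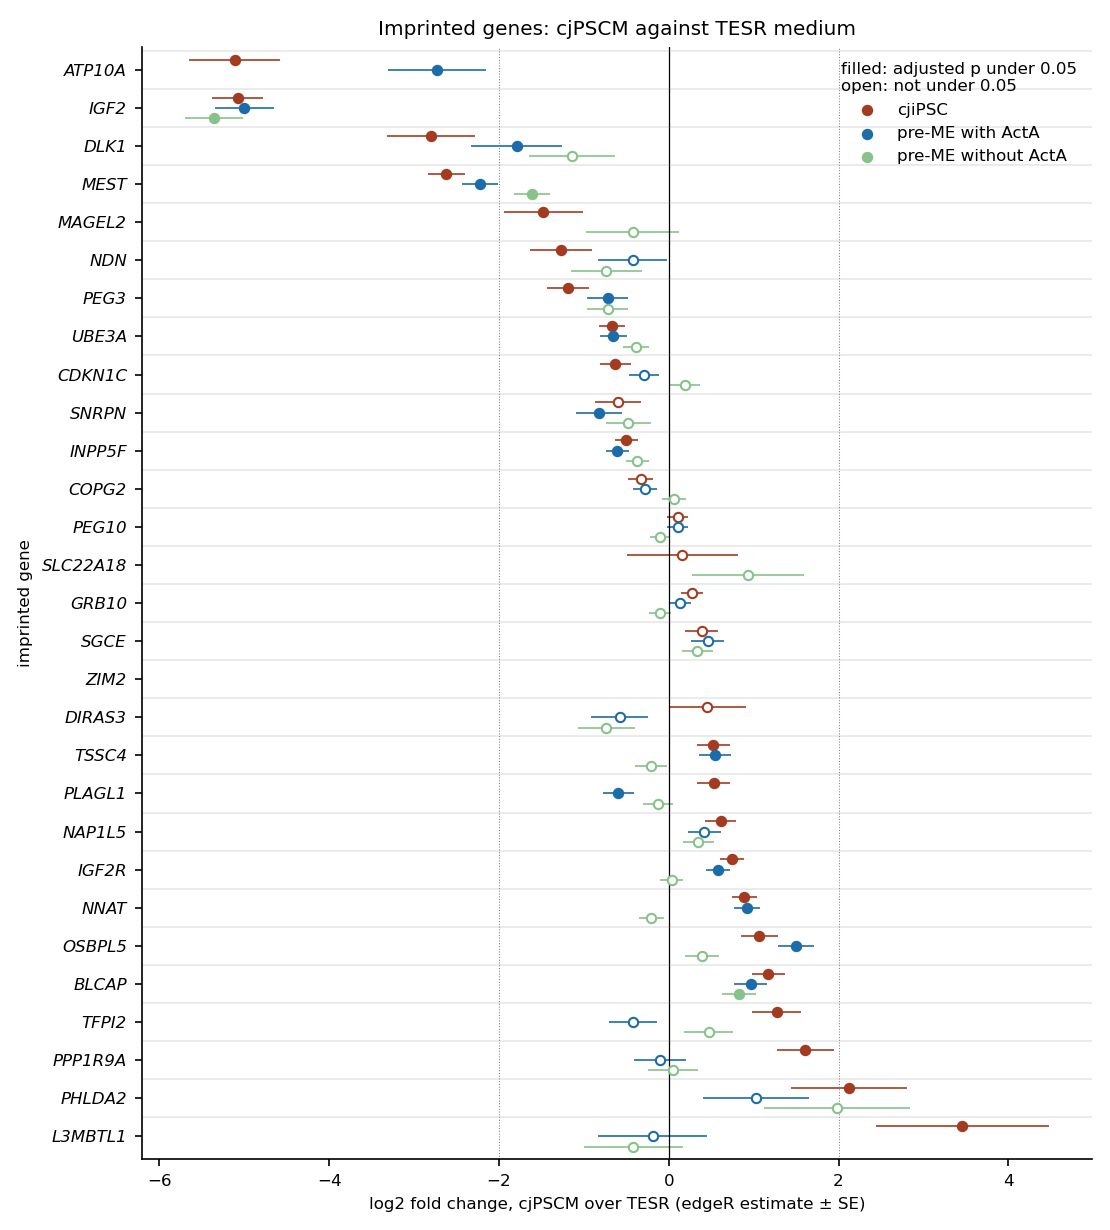
Log2 fold change of cjPSCM over TESR with its SE (horizontal axis, edgeR) for the tested imprinted genes, ordered by the value in cjiPSCs, in cjiPSCs (red), pre-ME with ActA (blue) and pre-ME without ActA (green); filled points have an adjusted p under 0.05 and dotted lines mark -2 and 2. Values with 3 counts or fewer in both libraries of a condition, among them all of ZIM2, are left out; IGF2 lies at -5.08, -5.00 and -5.36 at the 3 stages.

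Markers of other cell types moved with the medium as well. Between the cjiPSCs, 5 of 6 mesendoderm markers were lower in cjPSCM, with sums of 34.1 to 39.6 normalised counts against 463 to 686 in TESR. Of 4 tested endothelium and blood markers, 3 (CDH5, PECAM1 and TAL1) were higher, and the list summed to 16426 to 32406 against 7755 to 9424, with GATA1 at 0 in both conditions. The 8 mesoderm and mesenchyme markers summed to 86472 to 125595 in cjPSCM and 39646 to 64310 in TESR, with HAND2 and VIM higher and SNAI2 lower in cjPSCM. In pre-ME with ActA, all 6 mesendoderm markers were lower in cjPSCM origin (2493 to 3677 against 5152 to 5623), all 4 endothelium and blood markers were higher (7881 to 8497 against 2447 to 2869), and of the mesoderm and mesenchyme markers 1 was higher and 3 lower (46584 to 52359 against 23524 to 25992). In pre-ME without ActA, 5 mesendoderm markers were lower (1631 to 2004 against 5061 to 5686), 3 endothelium and blood markers were higher (5075 to 5118 against 1327 to 1333), and 1 mesoderm and mesenchyme marker was lower (21124 to 25554 against 16943 to 18377). Their part in the differences of imprinted genes was not tested.

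From cjiPSCs to pre-ME, more imprinted genes fell than rose in all 4 comparisons in the fit of all libraries. In TESR, 5 of the 29 genes rose and 13 fell into pre-ME with ActA, beside 17.3% and 17.1% of all tested genes. Without ActA, 5 rose and 13 fell, beside 17.4% and 19.2%. In cjPSCM, 2 rose and 9 fell with ActA, beside 7.42% and 10.3%, and 5 rose and 12 fell without ActA, beside 17.9% and 20.1%. In fits of the 4 libraries of each comparison alone, nearly all calls in cjPSCM were lost, with 0 higher and 1 lower with ActA and 1 and 1 without ActA, whereas TESR had 4 higher and 12 lower with ActA and 5 and 9 without ActA. The share of reads on no annotated gene also moved at this step, from 10.6% and 13.3% in TESR cjiPSCs to 19.3% to 20.6% in their pre-ME, and from 12.2% and 19.3% in cjPSCM cjiPSCs to 17.2% to 20.5%, and its part in these changes was not tested. PLAGL1 and DIRAS3 rose and IGF2, PEG10, BLCAP and NAP1L5 fell in all 4 comparisons, of which those with the same medium share the cjiPSC libraries. The fall of NAP1L5 in TESR without ActA was lost without pre-ME replicate 1 (-0.57, adjusted p = 0.0911). The rise of DIRAS3 in cjPSCM was lost without cjPSCM cjiPSC replicate 1 (0.90, adjusted p = 0.155 and 0.37, adjusted p = 0.495 with and without ActA), without pre-ME replicate 1 with ActA (1.46, adjusted p = 0.094) and without either pre-ME library without ActA (1.19, adjusted p = 0.0818 and 0.94, adjusted p = 0.149). Without cjPSCM cjiPSC replicate 1 the counts in cjPSCM were 1 higher and 3 lower with ActA, and 6 lower without ActA. Without replicate 2 they were 5 higher and 13 lower with ActA, and 7 higher and 14 lower without ActA. Without replicate 1 of the cjPSCM pre-ME with ActA 1 rose and 3 fell, without replicate 2 of these 5 fell, and without replicate 1 of the pre-ME without ActA 3 rose. In TESR, 8 fell without replicate 1 of the pre-ME with ActA. The fall of IGF2 in cjPSCM was -1.70 ± 0.42 (SE; adjusted p = 0.00924) with ActA and -2.15 ± 0.41 (SE; adjusted p = 0.0008) without ActA. It was lost without cjPSCM cjiPSC replicate 1 (-1.13, adjusted p = 0.281 and -1.57, adjusted p = 0.0584), and with ActA also without either pre-ME library (-1.99, adjusted p = 0.0613 and -1.54, adjusted p = 0.0607).

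Markers of other cell types moved at this step too. The sum of the 6 mesendoderm markers went from 463 to 686 normalised counts in TESR cjiPSCs to 5061 to 5686 in their pre-ME, and from 34.1 to 39.6 to 1631 to 3677 in cjPSCM, where TBXT was at 0 in the cjiPSCs. Of the 6 markers, 5 were higher with ActA and 3 without ActA in TESR, and 4 and 3 in cjPSCM. All 4 tested endothelium and blood markers were lower in each of the 4 comparisons, and their list summed to 7755 to 9424 in TESR cjiPSCs and 1327 to 2869 in their pre-ME, and to 16426 to 32406 and 5075 to 8497 in cjPSCM. The 8 mesoderm and mesenchyme markers summed to 39646 to 64310 and 16943 to 25992 in TESR and to 86472 to 125595 and 21124 to 52359 in cjPSCM, with 1 to 3 of them lower and 1 to 2 higher in each comparison. Their part in the changes of imprinted genes was not tested.

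The effect of the medium on this step was tested as an interaction. With ActA, 3 of the 29 genes (PPP1R9A, TFPI2 and PLAGL1) changed differently in the media, beside 6.2% of all tested genes. Without ActA these were 4 genes (PPP1R9A, NNAT, IGF2R and MEST), beside 6.54%. Of these 7 calls, only that of NNAT was kept without each library. The counts ranged from 0 to 7 with ActA and from 1 to 9 without ActA when 1 library was left out. With ActA, 0 genes were called without TESR cjiPSC replicate 2 or either cjPSCM pre-ME library. Without cjPSCM cjiPSC replicate 1 they were 7 and 9, and without its replicate 2 they were 5 and 7, with IGF2R at -0.53, adjusted p = 0.0645 in the former and MEST at 0.76, adjusted p = 0.0855 and PPP1R9A at -0.74, adjusted p = 0.0627 and -0.59, adjusted p = 0.138 in the latter. With no filter on low counts, more genes were called than in the main fit, both with and without ActA. PLAGL1 rose by 2.63 in TESR and by 1.51 in cjPSCM on the log2 scale, with ActA. Without ActA, the log2 fold change of MEST was -1.21 ± 0.21 (SE; adjusted p = 0.000295) in TESR and -0.20 ± 0.21 (SE; adjusted p = 0.462) in cjPSCM.

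ActA during the pre-ME step was compared within each medium. In TESR pre-ME, 3 imprinted genes (ATP10A, PHLDA2 and PLAGL1) were higher with ActA and 3 (PEG10, NAP1L5 and NNAT) were lower, beside 5.63% and 3.2% of all tested genes. DESeq2 called 4 higher and 5 lower, no filter on low counts gave 6 lower, and the 4 libraries of the comparison alone gave 7 higher and 9 lower. Only the call of PEG10 (-0.89 ± 0.12 (SE; adjusted p = 0.000106)) was kept without each library. In cjPSCM pre-ME, 5 genes (ATP10A, PHLDA2, TSSC4, IGF2R and NNAT) were higher, or 3 with a replicate block. Lower were 5 genes (SNRPN, PEG3, COPG2, PEG10 and NAP1L5), and the shares of all tested genes were 11.4% and 9.54%. Here PEG10 (-0.69 ± 0.12 (SE; adjusted p = 0.00106)), COPG2 (-0.70 ± 0.14 (SE; adjusted p = 0.00356)), IGF2R and TSSC4 (1.01 ± 0.19 (SE; adjusted p = 0.00175)) were kept without each library. In TESR, 1 gene was lower without any of the 4 libraries, and 0 were higher without replicate 2 of pre-ME without ActA and 1 without replicate 2 of those with ActA. In cjPSCM, the counts were 2 higher and 2 lower without replicate 1 with ActA or replicate 2 without ActA, 3 and 3 without replicate 2 with ActA, and 4 and 3 without replicate 1 without ActA. Of the 10 maternally expressed genes, 2 were higher with ActA in TESR and 4 in cjPSCM and 0 lower, and of the 16 paternally expressed genes, 1 was higher in each medium and 3 were lower in TESR and 4 in cjPSCM. The difference between the classes was not tested. Both maternally expressed genes of TESR and 2 of the 4 of cjPSCM were ATP10A and PHLDA2, whose calls were lost with single libraries left out. For ATP10A in cjPSCM these were 3.14, adjusted p = 0.284 and 3.80, adjusted p = 0.0701 without replicates 1 and 2 with ActA, and 2.37, adjusted p = 0.261 and 5.72, adjusted p = 0.0801 without replicates 1 and 2 without ActA.

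Markers of other cell types moved with ActA as well. The 8 mesoderm and mesenchyme markers summed to 46584 to 52359 normalised counts with ActA and 21124 to 25554 without it in cjPSCM pre-ME, and to 23524 to 25992 and 16943 to 18377 in TESR pre-ME, with 3 of them higher in cjPSCM (COL1A1, TWIST1 and VIM) and 2 in TESR (HAND1 and SNAI2). Of the 5 tested amnion-like and surface ectoderm markers, ISL1 was higher and TFAP2A lower with ActA in both media, with list sums of 1509 to 1757 against 641 to 709 in TESR and 914 to 966 against 686 to 749 in cjPSCM. KDR and TAL1 of the endothelium and blood list were higher with ActA in both media, and of the 6 mesendoderm markers 3 were higher in TESR and 4 in cjPSCM. Their part in the differences of imprinted genes was not tested.

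The response to ActA differed between the media for 1 of the 29 genes, NNAT, beside 0.399% of all tested genes, and DESeq2 and no filter on low counts each gave 2. The log2 fold change of NNAT with ActA was -0.52 ± 0.15 (SE; adjusted p = 0.0388) in TESR and 0.61 ± 0.15 (SE; adjusted p = 0.0106) in cjPSCM. The former was lost without any of the 4 libraries (adjusted p between 0.108 and 0.307), the latter without replicate 1 with ActA (0.55, adjusted p = 0.109) or replicate 2 without ActA (0.58, adjusted p = 0.0844), and the difference without any of the 8 (adjusted p between 0.053 and 0.209).

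From pre-ME to day 4, IGF2 had the largest fitted changes of the imprinted genes, leaving out ZIM2, which was at 0 counts in pre-ME with ActA. In cjPGCLCs with ActA, 9 of the 29 genes were higher than in pre-ME and 3 were lower, beside 25.3% and 23% of all tested genes. The libraries of this comparison alone gave 12 higher and 8 lower. Without ActA, 9 were higher and 6 lower, beside 21.5% and 18.5%. In soma with ActA, 8 were higher and 5 lower, beside 23.8% and 24.2%, and without ActA 13 were higher and 6 lower, beside 20.6% and 21.7%. IGF2, DLK1, PEG3, ZIM2, CDKN1C and NAP1L5 rose and TSSC4 and NNAT fell in all 4 comparisons, in which cjPGCLCs and soma share the pre-ME libraries. The fall of TSSC4 in cjPGCLCs without ActA was lost without either pre-ME library (-0.59, adjusted p = 0.0706 and -0.56, adjusted p = 0.094) or cjPGCLC replicate 2 (-0.44, adjusted p = 0.177). That of NNAT in soma without ActA was lost without either pre-ME library (-0.44, adjusted p = 0.0858 and -0.51, adjusted p = 0.0532) or soma replicate 1 (-0.34, adjusted p = 0.189). DLK1 rose by 2.94 ± 0.53 (SE; adjusted p = 0.000259) in cjPGCLCs with ActA, 3.27 ± 0.53 (SE; adjusted p = 0.00011) in soma with ActA and 4.12 ± 0.50 (SE; adjusted p = 7.85e-06) in soma without ActA. In cjPGCLCs without ActA the value was 1.66 ± 0.52 (SE; adjusted p = 0.0184), and it was lost without cjPGCLC replicate 1 (1.42, adjusted p = 0.141) or without either pre-ME library (1.80, adjusted p = 0.0724 and 1.56, adjusted p = 0.0927).

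Kept without each library were 9 of 12 calls in cjPGCLCs with ActA, 10 of 15 in cjPGCLCs without ActA, 10 of 13 in soma with ActA and 12 of 19 in soma without ActA. Without soma replicate 2 without ActA, 8 genes were called higher in that comparison. With ActA, 3 genes were called lower in soma without pre-ME replicate 1, without soma replicate 1 and without soma replicate 2. ATP10A rose from 0 and 1 counts in pre-ME without ActA to 12 and 2 in cjPGCLCs and 1 and 5 in soma, ratios of 19.4 (95% counting interval 2.95 to 821) and 15.03 (95% counting interval 1.82 to 691). These calls were lost without pre-ME replicate 1 (2.66, adjusted p = 0.14 and 2.31, adjusted p = 0.247), and without cjPGCLC replicate 1 (2.74, adjusted p = 0.273) or soma replicate 2 (2.29, adjusted p = 0.476).

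**Figure D5:**
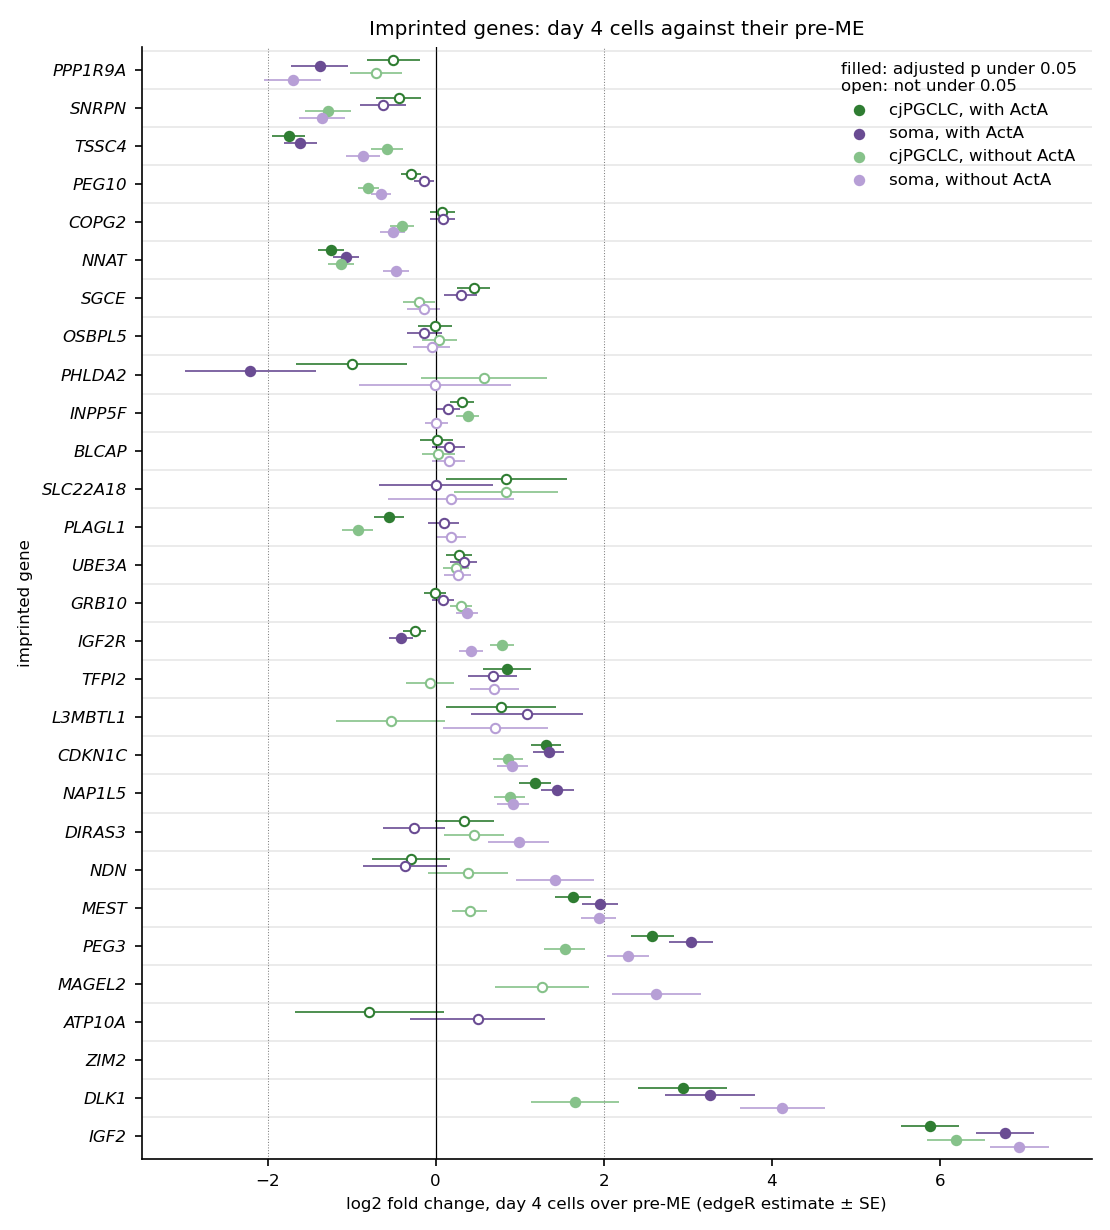
Log2 fold change of day 4 cells over the pre-ME they came from, with its SE (horizontal axis, edgeR), for cjPGCLCs (green) and soma (violet) with ActA (dark) and without ActA (light); filled points have an adjusted p under 0.05 and dotted lines mark -2 and 2. Values with 3 counts or fewer in both libraries of a condition are left out; IGF2 lies between 5.89 and 6.95 in all 4 comparisons.

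Other cell type markers moved at this step too. All 5 tested amnion-like and surface ectoderm markers were higher in each of the 4 day 4 conditions than in pre-ME, with sums of 4861 to 7580 normalised counts against 686 to 966 in pre-ME of cjPSCM origin. Of the 8 mesoderm and mesenchyme markers, 6 were higher in cjPGCLCs in both ActA conditions, 7 in soma with ActA and 8 in soma without ActA. They summed to 35550 to 66592 normalised counts at day 4 and 21124 to 52359 in pre-ME of cjPSCM origin, with 0 of them at 0 in both libraries of a condition. The mesendoderm markers summed to 1631 to 3677 in pre-ME of cjPSCM origin and 29.8 to 166 at day 4, where 5 of 6 were lower with ActA in both sorted populations, and 2 in cjPGCLCs and 3 in soma without ActA. The pluripotency markers summed to 19403 to 23539 in pre-ME and 8631 to 14255 at day 4, with 4 to 6 of 6 lower in each comparison. All 3 tested endoderm markers were higher in cjPGCLCs, and the list summed to 59.0 to 138 in pre-ME and 761 to 3828 in cjPGCLCs. Their part in the rise of IGF2, PEG3 and DLK1 was not tested.

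Between cjPGCLCs and soma of the same pre-ME condition, 2 imprinted genes differed with ActA and 4 without ActA in the fit of all libraries. With ActA, 0 of the 29 genes were higher in cjPGCLCs in edgeR and 2 were lower, IGF2 (-0.89 ± 0.24 (SE; adjusted p = 0.0387)) and PLAGL1 (-0.65 ± 0.18 (SE; adjusted p = 0.0493)), beside 3.68% and 1.16% of all tested genes. Both calls were lost with single libraries left out, IGF2 to -0.58, adjusted p = 0.41 without soma replicate 1, -0.76, adjusted p = 0.397 without cjPGCLC replicate 1 and -1.02, adjusted p = 0.0807 without cjPGCLC replicate 2. PLAGL1 was lost without any of the 4, with -0.70, adjusted p = 0.15 and -0.60, adjusted p = 0.302 without soma replicates 1 and 2, and -0.82, adjusted p = 0.105 and -0.50, adjusted p = 0.307 without cjPGCLC replicates 1 and 2. Without ActA, 0 were higher and 4 were lower, beside 6.67% and 2.96%. These were DLK1 (-2.46 ± 0.46 (SE; adjusted p = 0.00195)), MEST (-1.53 ± 0.21 (SE; adjusted p = 0.000134)), PLAGL1 (-1.11 ± 0.19 (SE; adjusted p = 0.000847)) and NNAT (-0.65 ± 0.16 (SE; adjusted p = 0.0138)), all known as paternally expressed. The calls of DLK1, MEST and PLAGL1 were kept without each library. That of NNAT was lost without soma replicate 2 (-0.50, adjusted p = 0.19), cjPGCLC replicate 1 (-0.65, adjusted p = 0.0997) or cjPGCLC replicate 2 (-0.65, adjusted p = 0.0786). At an unadjusted p under 0.05, 1 gene was higher and 2 lower in cjPGCLCs with ActA, and 3 were higher and 9 lower without ActA. DESeq2 called 0 higher and 2 lower with ActA, and 0 and 6 without ActA. The 4 libraries of each comparison alone gave 1 higher and 3 lower with ActA and 3 and 8 without ActA, and no filter on low counts gave 1 higher with ActA and 1 higher and 9 lower without ActA.

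The sorted cells differed in markers of other cell types. All 3 tested endoderm markers were higher in cjPGCLCs in both ActA conditions, and the sum of the 6 on the list was 761 to 3828 normalised counts in cjPGCLCs and 140 to 212 in soma, where TTR was at 0 in all libraries. Without ActA, 5 of 8 mesoderm and mesenchyme markers were lower in cjPGCLCs, with sums of 35550 to 43269 against 58120 to 66592 in soma, and with ActA 0 were called, with sums of 49032 to 59767 against 48131 to 63309. Their part in the differences of DLK1, MEST and PLAGL1 was not tested.

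The day 4 cells with and without ActA in the pre-ME step were also compared. In cjPGCLCs, MEST was higher with ActA (0.86 ± 0.21 (SE; adjusted p = 0.035)) and 0 of the 29 genes were lower, beside 1.37% and 1.16% of all tested genes. The call of MEST was lost without cjPGCLC replicate 1 with ActA (0.69, adjusted p = 0.342), or without replicate 1 (1.02, adjusted p = 0.116) or replicate 2 (0.72, adjusted p = 0.282) without ActA. In soma 0 of the 29 genes were called in edgeR in each direction, beside 0.019% and 0.00633%. At an unadjusted p under 0.05, 7 genes were higher and 0 lower in cjPGCLCs, and 1 was higher and 2 lower in soma, and DESeq2 called 2 higher in cjPGCLCs and 0 in soma. No filter on low counts and the 4 libraries of the comparison alone each gave 4 higher in cjPGCLCs. The difference between the sorted cells changed with ActA for 0 of the 29 genes in edgeR, beside 0.0633% of all tested genes, with 5 genes at an unadjusted p under 0.05, 1 called by DESeq2 and 3 with no filter.

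A further list of 54 genes reported as imprinted in human was compared with the genes above, and 44 of them had a row and 29 were tested. In cjiPSCs, 4 of these were higher in cjPSCM and 7 were lower, beside 18.1% and 18.1% of all tested genes, with a median log2 fold change of -0.08. From pre-ME to day 4, 12 were higher and 3 lower in cjPGCLCs with ActA, beside 25.3% and 23%, and 11 and 2 without ActA, beside 21.5% and 18.5%. In soma 12 were higher and 2 lower with ActA, beside 23.8% and 24.2%, and 8 and 2 without ActA, beside 20.6% and 21.7%. DLX5, a homeobox gene, ANO1, a chloride channel, RB1, the retinoblastoma gene, CTNNA3, a catenin, and HERC3, which overlaps NAP1L5, were higher in all 4 comparisons with pre-ME. The log2 fold changes of RB1 were 1.06 ± 0.18 and 1.01 ± 0.18 with ActA and 0.84 ± 0.18 and 0.67 ± 0.18 without ActA. ZDBF2, a paternally expressed gene, was lower in cjPSCM cjiPSCs (-0.73 ± 0.16 (SE; adjusted p = 0.00182)).

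Of 24 factors known to keep or set imprints, 21 had a row and 19 were tested. In cjiPSCs, 3 of them were higher in cjPSCM, DPPA3 (5.30 ± 0.71 (SE; adjusted p = 2.12e-05)), KHDC3L (3.63 ± 0.66 (SE; adjusted p = 0.000425)) and NLRP7 (3.56 ± 0.35 (SE; adjusted p = 8.35e-07)), which are maternal-effect or germ cell factors, and 4 were lower, UHRF1 (-1.14 ± 0.20 (SE; adjusted p = 0.000313)), SMCHD1, TET1 and EHMT2, beside 18.1% and 18.1% of all tested genes. The shares of the 19 factors, 15.8% and 21.1%, were near these. UHRF1 brings the maintenance methyltransferase to replicated DNA. From pre-ME to day 4, 5 of the 19 factors were higher and 9 lower in cjPGCLCs with ActA, beside 25.3% and 23% of all tested genes, and 5 and 4 without ActA, beside 21.5% and 18.5%. In soma 6 were higher and 7 lower with ActA, beside 23.8% and 24.2%, and 5 and 5 without ActA, beside 20.6% and 21.7%. TET2 and TET1, which oxidise methylcytosine, rose and DNMT3B, a de novo methyltransferase, fell in all 4 comparisons. TET2 rose by 1.92 ± 0.18 and 1.57 ± 0.18 in cjPGCLCs and by 1.59 ± 0.18 and 1.55 ± 0.18 in soma, with and without ActA. DNMT3B had log2 fold changes of -0.87 and -2.14 in cjPGCLCs and -0.84 and -2.09 in soma. TRIM28, a corepressor at imprinted regions, fell from pre-ME with ActA to day 4, with log2 fold changes of -0.78 ± 0.14 in cjPGCLCs and -0.70 ± 0.14 in soma. From pre-ME without ActA the values were -0.32 ± 0.14 (SE; adjusted p = 0.0868) and -0.34 ± 0.14 (SE; adjusted p = 0.0672). In the sort, DPPA3 was higher in cjPGCLCs, by 4.05 ± 0.83 (SE; adjusted p = 0.00792) with ActA and 5.54 ± 1.01 (SE; adjusted p = 0.00172) without ActA. The levels of these factors say nothing of methylation at any gene.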

How the data were processed

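Poly(A) RNA of 20 libraries was sequenced in paired-end mode. Per the methods and the labels, the authors checked reads with FastQC 0.11.8, aligned them with STAR 2.7.0a to calJac4, and counted them per gene with HTSeq 0.11. The labels name a directional library kit, but the strand setting of the counting is not given in the sources used here. Reads set apart as ambiguous between genes made up 0.268% to 0.350% of the reads per library. Overlapping genes may therefore lack reads or hold reads of each other. The deposited tables hold raw counts and, as signal, counts divided by DESeq2 size factors. Rows that name no gene held 11% to 23.4% of the reads and were left out.

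Here, the raw counts went into edgeR's quasi-likelihood test (edgeR 4.0.16, R 4.3.3; TMM, filterByExpr, 1 coefficient per condition over all 20 libraries, 10 residual degrees of freedom), with Benjamini-Hochberg adjustment over 15797 genes and an adjusted p under 0.05 as call. The fit was tried on simulated counts, only for the comparison of media in cjiPSCs and with the same spread of a gene in all conditions. It therefore does not cover the larger difference between the cjPSCM cjiPSC libraries. In all, 17 comparisons and 4 interactions were made. Genes were named if called, or by a list of 20 fixed genes. The genes and lists were chosen with earlier results of these data known. Alternatives were DESeq2 1.42.0, its size factors, no filter, a replicate block, the libraries of a comparison alone and each library left out. Ratios to groups with few counts have 95% exact intervals, which cover counting error only. Gene overlaps were read from a RefSeq table of another assembly, where 33 of the 39 names were found.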

Additional observations from a re-analysis of the deposited data

Results flagged for a closer look

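Some changes differed between media in a test of the difference itself, the effect in cjPSCM minus that in TESR on the log2 scale. From cjiPSCs to pre-ME with ActA, the difference was -1.69 ± 0.41 (SE; adjusted p = 0.0203) for TFPI2, -1.71 ± 0.45 (SE; adjusted p = 0.033) for PPP1R9A and -1.12 ± 0.26 (SE; adjusted p = 0.0171) for PLAGL1. From cjiPSCs to pre-ME without ActA it was -1.10 ± 0.21 (SE; adjusted p = 0.00555) for NNAT, -0.71 ± 0.20 (SE; adjusted p = 0.0415) for IGF2R, -1.56 ± 0.45 (SE; adjusted p = 0.047) for PPP1R9A and 1.01 ± 0.29 (SE; adjusted p = 0.0482) for MEST. For the response of pre-ME to ActA it was 1.13 ± 0.21 (SE; adjusted p = 0.0249) for NNAT. Each of these calls except that of NNAT from cjiPSCs to pre-ME without ActA was lost when single libraries were left out. Without replicate 2 of the cjPSCM cjiPSCs, PPP1R9A had -0.74, adjusted p = 0.0627 with ActA and -0.59, adjusted p = 0.138 without ActA, and MEST had 0.76, adjusted p = 0.0855 without ActA. Without replicate 1 of these cells, IGF2R had -0.53, adjusted p = 0.0645 without ActA.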

How the results depend on the processing

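Of 193 calls of single genes in a comparison, DESeq2 kept 187, its size factors 191, no filter 188 and the replicate block 189, all with the same direction. In a fit of the libraries of the comparison alone, 132 of 175 were kept. With each library left out in turn, 556 of 804 values remained calls, 247 fell short and 1 reversed, which was L3MBTL1 between the media in cjiPSCs (-1.02, adjusted p = 0.574 without cjPSCM replicate 2, and at most 4.58 without another library). The cause of these losses was not tested. The libraries of the comparison alone gave 3 genes higher and 4 lower between media in cjiPSCs, 8 higher in pre-ME with ActA and 8 lower without ActA. They gave 7 higher and 9 lower for ActA in TESR, 0 and 1 for cjPSCM pre-ME over cjiPSCs with ActA, and 1 and 1 without ActA. For cjPGCLCs over soma they gave 1 higher with ActA, and 3 higher and 8 lower without ActA, for cjPGCLCs over pre-ME with ActA 8 lower, and for ActA in cjPGCLCs 4 higher. With no filter, 2 genes were higher and 6 lower between media in pre-ME without ActA, 6 were lower for ActA in TESR, 1 was higher in cjPGCLCs over soma with ActA, and 1 higher and 9 lower without ActA. It gave 5 lower in cjPGCLCs over pre-ME with ActA and 4 higher for ActA in cjPGCLCs, and 3 for the sort by ActA, 2 for ActA by medium, and 5 and 8 for pre-ME by medium with and without ActA. DESeq2 gave 5 lower for ActA in TESR, 2 higher for ActA in cjPGCLCs, 1 for the sort by ActA and 2 for ActA by medium. The replicate block gave 3 higher for ActA in cjPSCM, 1 lower in cjPGCLCs over soma with ActA and 1 for the sort by ActA. Same-numbered libraries had correlations of deviations from the condition means between -0.204 and 0.258, with 0.251, 0.253 and 0.258 for ActA in TESR pre-ME, in cjPSCM pre-ME and in cjPGCLCs. With 2 replicates per condition, and no label that ties the numbers, they were not taken to pair the libraries.

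Without 1 library, the counts ranged as follows. Between media they were 7 to 11 higher in cjiPSCs, 3 to 5 higher and 4 to 7 lower in pre-ME with ActA, and 0 to 1 higher without ActA. For ActA they were 0 to 2 higher and 1 lower in TESR, 2 to 4 higher and 2 to 3 lower in cjPSCM, and 0 to 1 higher in cjPGCLCs. From cjiPSCs to pre-ME in cjPSCM they were 1 to 5 higher and 3 to 13 lower with ActA, 3 to 7 higher and 6 to 14 lower without ActA, and in TESR with ActA 8 to 12 lower. At day 4 they were 0 to 1 lower in cjPGCLCs over soma with ActA, 3 to 5 lower in soma over pre-ME with ActA and 8 to 11 higher without ActA. The interactions had 0 calls for ActA by medium, 0 to 7 for pre-ME with ActA by medium and 1 to 9 without ActA. With 2 cultures of 1 line per condition, small changes may be missed, and genes at a few counts (ZIM2, SLC22A18, MAGEL2 and ATP10A in cjPSCM) are limited by depth.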
